A study of Homo sapiens with 12 samples.

Results

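The genes described here are 40 components and targets of the NF-kB pathway. They were chosen by name, with earlier results of these data known, out of 58884 genes in the count table. They are the subunits of the transcription factor, its inhibitors, feedback regulators, adaptors and ubiquitin ligases, kinases and 4 further targets. Each of the 40 symbols was found, and SOD2 was listed on 2 rows, of which the second held 0 to 2 counts per library and was left out. RNA was sequenced from 2 diffuse large B-cell lymphoma (DLBCL) cell lines labelled wild type, U2932 and TMD8. Each line was treated with rituximab (R), ofatumumab (OF) or a human IgG1 isotype control at 20 µg/mL for 4 h, so that all 6 groups had an antibody added and no group was left untreated. R and OF are antibodies against CD20, a surface protein of B cells, and bind different parts of it. Each group had 2 libraries, from 2 cultures of the line that had been kept apart before treatment. The p-values below therefore measure the spread between 2 cultures of 1 line. Libraries of the same number in a line were taken to come from the same culture, which the sample titles do not state. In RNA from whole cultures, fewer cells with a transcript and less of it per cell cannot be told apart.

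NF-kB is a family of dimeric transcription factors built from the subunits RELA, RELB, REL, NFKB1 (p105, cut to p50) and NFKB2 (p100, cut to p52). In resting cells the dimers are held back by inhibitors of the IkB family, and receptors release them either through the IKK kinases, which mark IkBα for destruction (the canonical route), or through the kinase MAP3K14 (NIK), which drives the processing of p100 (the alternative route). Many of the released factor's targets encode its own inhibitors and subunits, so the pathway is wired as a set of feedback loops, and it is known for supporting the survival of many B-cell lymphomas.

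Library totals ran from 15440226 to 27110612 counts, of which the 40 genes took 0.262% to 0.385%. The test covered 39 of the 40 genes, with 43 to 16288 counts per library. IRAK2, a kinase of Toll-like receptor signalling, had 1 to 12 counts per library (0.0591 to 0.534 CPM, counts scaled to a common library size) and was too low to test. The B-cell genes MS4A1 (which encodes CD20), CD79A, PAX5 and CD22 were at 136 CPM or more in every library, and the T-cell gene CD3D had 0 counts in U2932 and 1 in TMD8. Of 5 markers of activated B-cell-like DLBCL, IRF4, TNFRSF13B, FOXP1 and PIM1 were at 52.9 CPM or more in every library of both lines, and ENTPD1 was at 0.175 to 0.627 CPM in U2932 and 253 to 408 in TMD8. Of 4 germinal centre markers, MME, MYBL1 and BCL6 had their higher range in U2932 (52 to 61.8, 63.9 to 78.5 and 167 to 196 CPM, against at most 0.326, 9.05 and 36.3) and LMO2 in TMD8 (71 to 134 against 8.99 to 14), and the epithelial marker EPCAM was at 29 to 37.1 CPM in U2932. In TMD8, replicate 2 of OF and of isotype stood apart, with 7.17% and 6.52% of counts on ribosomal protein genes against 10.0% to 10.8% in the other 4 libraries. The part of these differences in the results was not tested.

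Promoter windows of 300 bases, from 250 before to 50 after a RefSeq start on GRCh38.p14, were at hand for 36 of the 40 genes (64 windows). The kappa B consensus, the 10-base pattern named after NF-kB binding, was searched on both strands. It matched in windows of 17 of the 36 genes (47.2%), against 13.3% of all 27305 genes with a window. A narrower form of the pattern, with T at both pyrimidine positions, matched in 41.7% against 4.04%. Genes with more windows have more room for a match. Per window, the shares were 32.8% of the members' 64 against 11.3% of all 35116, and 25% against 3.31% for the narrower form. The members' windows were also richer in GC, with a median of 68.3% against 58.7%, and the comparison was not matched for it. Sequences are shown for the 4 genes with a match that came first by the number of comparisons with isotype in which they were called and then by their smallest adjusted p-value, 5′ to 3′ on the strand of the gene, with the bases that match in capitals. Stretches in annotated exons were left out beyond 30 bases. A match is a description of the letters and not a bound site.
NFKB1, chr4:102501300-102501329 (+): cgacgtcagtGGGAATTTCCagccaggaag
CD83, chr6:14117687-14117716 (+): ctgcccgccGGGGAATCCCCCgggctggcg
TRAF3, chr14:102777199-102777448 (+): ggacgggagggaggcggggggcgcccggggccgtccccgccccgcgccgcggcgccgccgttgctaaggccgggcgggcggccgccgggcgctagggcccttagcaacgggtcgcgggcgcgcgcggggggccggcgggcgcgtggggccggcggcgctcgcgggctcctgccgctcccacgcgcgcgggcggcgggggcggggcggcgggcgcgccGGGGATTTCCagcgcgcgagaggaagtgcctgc
NFKBID, first start, chr19:35900613-35900642 (-): agcgcgacccGGGGACTCCCaggcctgtgg
NFKBID, second start, chr19:35899744-35899993 (-): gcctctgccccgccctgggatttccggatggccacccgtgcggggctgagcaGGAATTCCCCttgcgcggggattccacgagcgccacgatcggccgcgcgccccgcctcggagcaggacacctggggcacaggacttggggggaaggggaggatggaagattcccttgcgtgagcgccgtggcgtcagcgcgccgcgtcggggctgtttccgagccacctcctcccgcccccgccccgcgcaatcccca
NFKBID held a match in the windows of both starts, and the capitals of CD83 cover overlapping matches.

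The first question was how the 2 lines differed with the isotype control alone. TMD8 carried more RNA of the alternative-route genes NFKB2, RELB and MAP3K14 and of the IkB family genes BCL3, NFKBIZ and NFKBIA. U2932 carried more of IKBKE, BIRC3, TIFA and CD83. In edgeR's quasi-likelihood test, called at a Benjamini-Hochberg adjusted p-value under 0.10, 27 of the 39 genes differed (69.2%), 12 higher and 15 lower in U2932 (33.2% and 33.7% of all genes). Of all 16187 genes tested, 66.8% were called, so the share among the NF-kB genes was close to the background. Of the 27, 24 differed by at least 1.5-fold (background 56.1%). Below, levels are CPM after TMM normalization, differences are on the log2 scale, and ± gives the standard error.

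**Figure D1:**
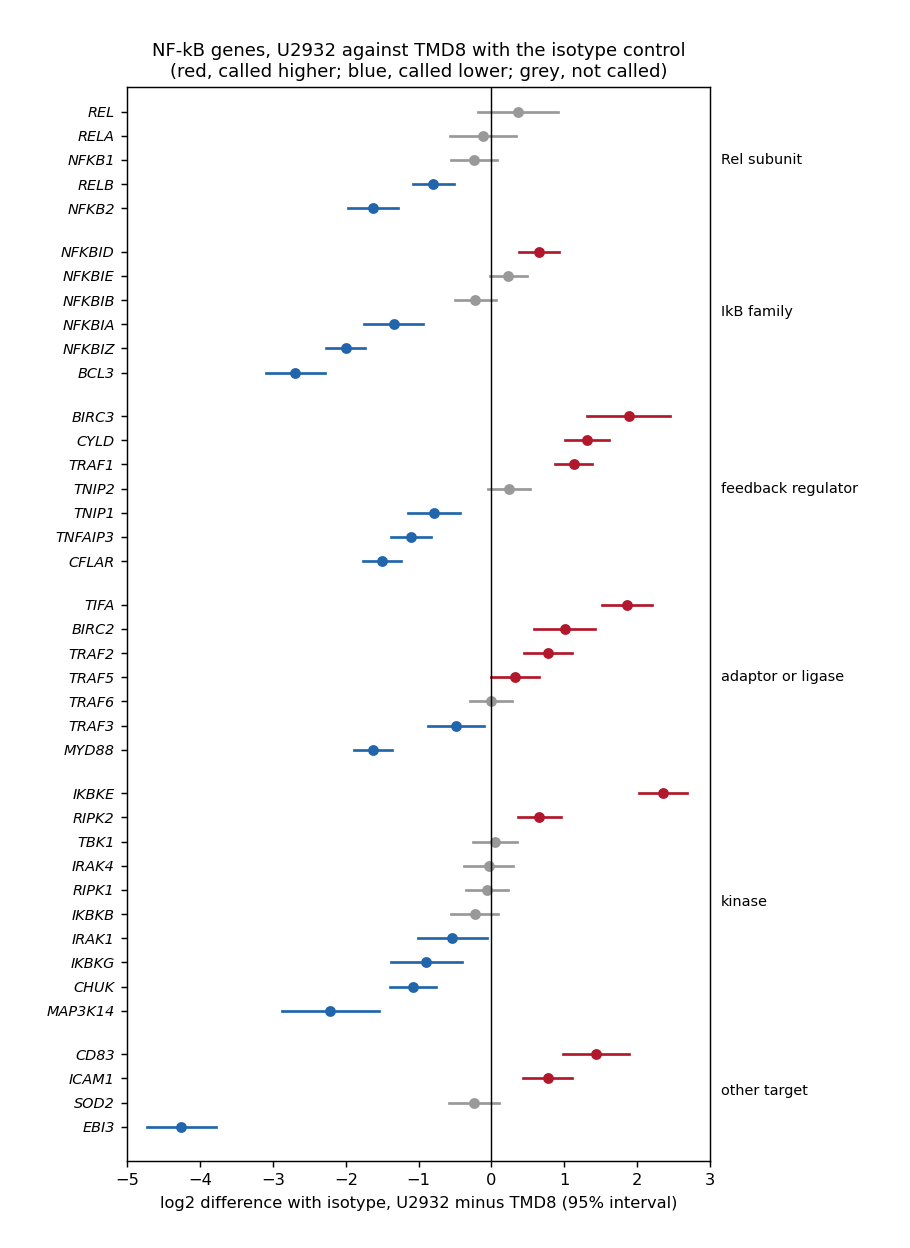
Log2 difference between U2932 and TMD8 with the isotype control (U2932 minus TMD8) for 39 NF-kB genes by role, as points with 95% intervals from edgeR with 2 libraries per group. EBI3 at -4.26 lies farthest to the left and IKBKE at 2.35 farthest to the right, and 12 of the 39 genes are grey because they did not pass the test.

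Among the Rel subunits, NFKB2, the p100 precursor, was at 70.4 and 60.7 CPM in U2932 and at 170 and 227 in TMD8. Its libraries did not overlap, and it was lower in U2932 by -1.62 ± 0.16 (adjusted p = 4.19e-06). RELB, its usual partner, was at 76.0 and 64.8 CPM in U2932 and 116 and 125 in TMD8 (-0.80 ± 0.13, adjusted p = 0.000216). Averaged over the 3 antibodies, the RELB difference was -0.11 and did not pass (adjusted p = 0.184). NFKB1, REL and RELA, the canonical subunits, differed by -0.24, 0.37 and -0.12 and did not pass the test. Their 95% intervals reached from -0.56 to 0.08 for NFKB1, -0.18 to 0.91 for REL and -0.57 to 0.34 for RELA.

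In the IkB family, BCL3, a nuclear member that binds p50 and p52, had the largest difference, with 22.3 and 20.0 CPM in U2932 against 113 and 157 in TMD8 (-2.69 ± 0.18, adjusted p = 2.48e-07). NFKBIZ, another nuclear member, was at 38.2 and 40.5 CPM against 156 and 155, or 0.249 times the TMD8 level. NFKBIA, which encodes the main cytoplasmic inhibitor IkBα, was at 23.3 and 24.4 CPM against 68.2 and 51.0 (-1.34 ± 0.18). All 3 were called lower in U2932, as were 33.7% of all genes. NFKBID, also a nuclear member, went the other way, with 119 and 103 CPM in U2932 and 68.0 and 70.8 in TMD8 (0.66 ± 0.13, adjusted p = 0.000884). NFKBIB and NFKBIE did not pass the test.

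Of the 7 feedback regulators, 6 differed, 3 in each direction, where 66.8% of all genes were called. BIRC3, a ubiquitin ligase that restrains NIK and is itself an NF-kB target, was at 307 and 384 CPM in U2932 and at 112 and 72.6 in TMD8, or 3.70-fold higher in U2932 (1.89 ± 0.26, adjusted p = 7.06e-05). The deubiquitinase CYLD (1.31) and the adaptor TRAF1 (1.13) were also higher there. The ubiquitin-editing enzyme TNFAIP3 (A20, -1.10), its partner TNIP1 (-0.79) and the caspase-8 regulator CFLAR (c-FLIP, -1.51) were lower in U2932. Exons of CFLAR overlap an antisense RNA and a pseudogene on the other strand, and the strand setting of the counting is not given in the sources used here.

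Of the adaptors and ligases, TIFA was at 111 and 119 CPM in U2932 against 34.8 and 27.7 in TMD8 (1.86 ± 0.16, adjusted p = 1.33e-06), and BIRC2 (1.01) and TRAF2 (0.78), which act together on NIK, were higher too. MYD88, the adaptor of Toll-like and interleukin-1 receptors, was at 33.4 and 35.0 CPM against 101 and 108 (-1.63 ± 0.12, adjusted p = 4.90e-07). TRAF3, which completes the complex that holds NIK low, was lower in U2932 by -0.49 (adjusted p = 0.0295). TRAF5 passed at 0.32 (adjusted p = 0.0780), a call that did not hold with a GC content correction (adjusted p = 0.259). The TRAF3 call did not hold with library size alone (adjusted p = 0.152).

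Among the kinases, IKBKE (IKKε) was at 65.5 and 60.5 CPM in U2932 and 11.3 and 12.9 in TMD8, a 5.11-fold difference (2.35 ± 0.15, adjusted p = 1.37e-07). RIPK2, which signals below NOD receptors, was higher by 0.66. MAP3K14 was at 19.8 and 15.9 CPM against 55.3 and 107 (-2.21 ± 0.30, adjusted p = 7.00e-05), with the 2 TMD8 libraries far apart. CHUK (IKKα, -1.08), IKBKG (NEMO, -0.90) and IRAK1 (-0.54) were lower in U2932, the last not with library size alone (adjusted p = 0.183). IKBKB (IKKβ), TBK1, IRAK4 and RIPK1 differed by -0.23 to 0.05 and were not called. MAP3K14 shares exon bases with an antisense RNA.

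Of the other targets, EBI3, a cytokine subunit, was low in U2932, with 2.85 and 1.88 CPM against 41.3 and 48.0 in TMD8 (-4.26 ± 0.22, adjusted p = 2.74e-08). CD83, a surface marker of activated B cells, was at 173 and 201 CPM against 80.7 and 55.7 (1.44 ± 0.21), and the adhesion molecule ICAM1 was higher by 0.77. SOD2, the mitochondrial superoxide dismutase, differed by -0.24 and did not pass. Per kb of the longest transcript, so that genes can be set side by side, the highest levels in U2932 were those of CD83 (69.9 to 81.5 CPM per kb), TNIP1 (62.4 to 71.8), BIRC3 (59.1 to 73.8) and NFKBID (56.0 to 65.0), whose ranges overlap. In TMD8, TNIP1 (96.0 to 133) stood above BCL3 (55.4 to 76.9), NFKB2 (49.8 to 66.5) and RELB (50.7 to 54.3). The transcripts used for CFLAR, SOD2 and REL are 14.7, 14.3 and 11.3 kb long, so their levels per kb would be higher with a shorter form.

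The next question was how the NF-kB genes responded to each anti-CD20 antibody. In U2932, NFKB1, REL, NFKBID, BIRC2, TRAF2 and TRAF6 fell with both antibodies, whereas MYD88, SOD2, CD83, TRAF3, ICAM1, IKBKE and NFKBIA rose. With R, 18 of 39 genes were called (46.2%), 8 higher and 10 lower, against 34.2% of all genes tested (16.8% higher and 17.4% lower). With OF, 17 were called (43.6%), 8 higher and 9 lower, against 36.4% (18.7% and 17.8%). Both counts are near a background in which over 1 in 3 genes was called, and the median log2 fold change of the members was -0.02 with R and 0.08 with OF, against -0.02 and 0.01 over all genes. Most changes were small, with 4 genes changed at least 1.5-fold with R (background 10.2%) and 3 with OF (11.1%). The comparisons with R and with OF share the isotype libraries of the line. Scaling by library size alone shifted the median of all genes to -0.12 with R, and the split of the members became 5 higher and 16 lower in place of 8 and 10. With OF that scaling gave 6 higher and 12 lower in place of 8 and 9. The replicate number was also used as a block, which compares libraries taken to be of the same culture. With the block, 20 members were called for each antibody (background 37.1% for R and 39.5% for OF). They were 8 higher and 12 lower with R (background 18.2% and 18.8%) and 10 in each direction with OF (20.3% and 19.2%). At 1.5-fold the block called 4 and 3 (background 10.4% and 11.4%).

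In TMD8 the same test called 3 genes with R, namely RELB, NFKBID and TRAF1 (background 0.647%), and 2 with OF, NFKBID and TRAF1 (background 0.815%), all of them lower. By direction, the background was 0.401% higher and 0.246% lower for R, and 0.471% and 0.344% for OF. The 2 libraries of OF and of isotype differed more in TMD8 than in U2932. Their chi-square per degree of freedom, a measure of differences beyond counting error, was 62.2 and 106 against 2.42 and 10.8. For R it was 5.92 against 6.81. The median half-width of the members' 95% intervals was 0.44 on the log2 scale in TMD8 and 0.21 in U2932. With the block, 17 genes were called with R, 4 higher and 13 lower (background 17.7%, with 8.99% higher and 8.73% lower), and 14 with OF, 5 higher and 9 lower (background 14.3%, with 7.45% and 6.87%). At 1.5-fold the block called 10 and 7 (background 11% and 9.75%). Of the 17 and 14 members called with the block and no fold limit, 14 and 12 were also called when the block was combined with a GC content correction. Every one of the 5 Rel subunits had a negative log2 fold change with both antibodies in TMD8, from -1.30 to -0.54 with R and from -0.77 to -0.19 with OF. The median over all genes was -0.024 with R and -0.006 with OF. Of these subunit changes the main test called RELB with R. RELA with OF, at 61.6 and 76.3 CPM, overlapped isotype at 59.2 and 97. Whether the subunits moved together was not tested. Without either R library, calls for R were lost over all genes, the members included. For OF this held without either R library or either OF library, and nearly so without replicate 1 of isotype. Each such fit leaves 1 library in a group, so these losses are not particular to the members.

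**Figure D2:**
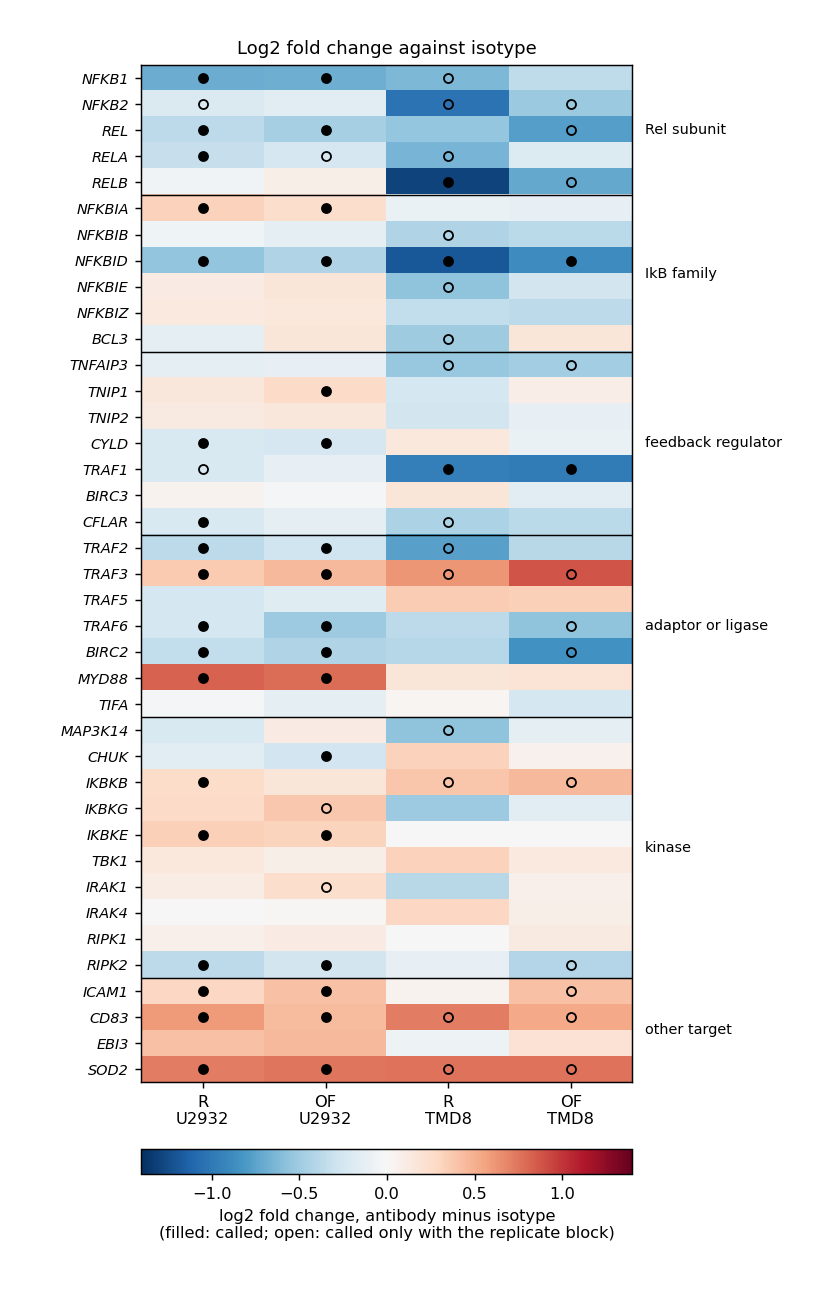
Log2 fold change against isotype of 39 NF-kB genes (rows, by role) for R and OF in U2932 and TMD8 (columns), from blue for lower to red for higher. Filled circles mark genes called at an adjusted p-value under 0.10 (18, 17, 3 and 2 genes) and open circles those called only with the replicate block.

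NFKB1 (chromosome 4, 102501329 to 102617302, plus strand, GRCh38) was lower with both antibodies in U2932. It was at 151 and 148 CPM with isotype, 97.3 and 90.2 with R, and 91.2 and 96.6 with OF, so that every anti-CD20 library lay below both isotype libraries. It fell by 0.69 ± 0.09 with R (adjusted p = 2.51e-06) and by the same amount with OF (adjusted p = 2.86e-06). In TMD8 it was at 151 and 196 CPM with isotype, 123 and 105 with R, and 129 and 144 with OF. Its changes there, -0.63 and -0.36, did not pass the test, and with the block the change with R did (adjusted p = 0.0450).

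REL, a subunit with its main roles in lymphoid cells, was at 80.1 and 109 CPM with isotype in U2932, 88.5 and 60.5 with R, and 66.9 and 72.1 with OF. The R libraries overlapped those of isotype and the OF libraries lay below them. REL fell with R by 0.36 ± 0.13 at an adjusted p of 0.0454, and its change with OF was -0.46 ± 0.13 at 0.0108. With DESeq2 neither passed (adjusted p = 0.395 and 0.224), and with a GC content correction the change with R did not (adjusted p = 0.106). Of the 13170 exon bases of REL, 5702 are shared with a non-coding RNA gene on the same strand. The effect of that overlap on the REL counts was not tested. RELA was at 81.7 and 64.7 CPM with isotype, 60.3 and 58.5 with R, and 61.9 and 64.6 with OF in U2932. It fell by 0.32 ± 0.11 with R (adjusted p = 0.0245), and the change with OF, -0.23, did not pass (adjusted p = 0.105).

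RELB and NFKB2, the alternative-route pair, were lower with both antibodies in TMD8, and of the 2 RELB with R passed the test. RELB was at 116 and 125 CPM with isotype, 48.9 and 50.2 with R, and 75.5 and 72.2 with OF. The 3 groups did not overlap, and the replicates lay close together. RELB fell by 1.30 ± 0.14 with R (adjusted p = 0.0697), or by 1.05 with the block and the GC content correction (adjusted p = 0.00349). With OF the change was -0.72 ± 0.14, which did not pass (adjusted p = 0.118) but did with the block (adjusted p = 0.0138) and with DESeq2 (adjusted p = 0.016). In U2932, RELB was at 76.0 and 64.8 CPM with isotype, 73.5 and 64.1 with R, and 78.0 and 72.7 with OF, and its changes were -0.05 and 0.08.

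NFKB2 was at 170 and 227 CPM with isotype in TMD8, 104 and 92.4 with R, and 132 and 148 with OF. Both antibodies lay below isotype. The change with R was -1.03 ± 0.19 and missed the threshold (adjusted p = 0.104), and it passed with the block (adjusted p = 0.00870) and with DESeq2 (adjusted p = 0.00113). With OF the change was -0.52, with an adjusted p of 0.0817 with the block. In U2932 the changes of NFKB2 were -0.21 and -0.15.

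**Figure D3:**
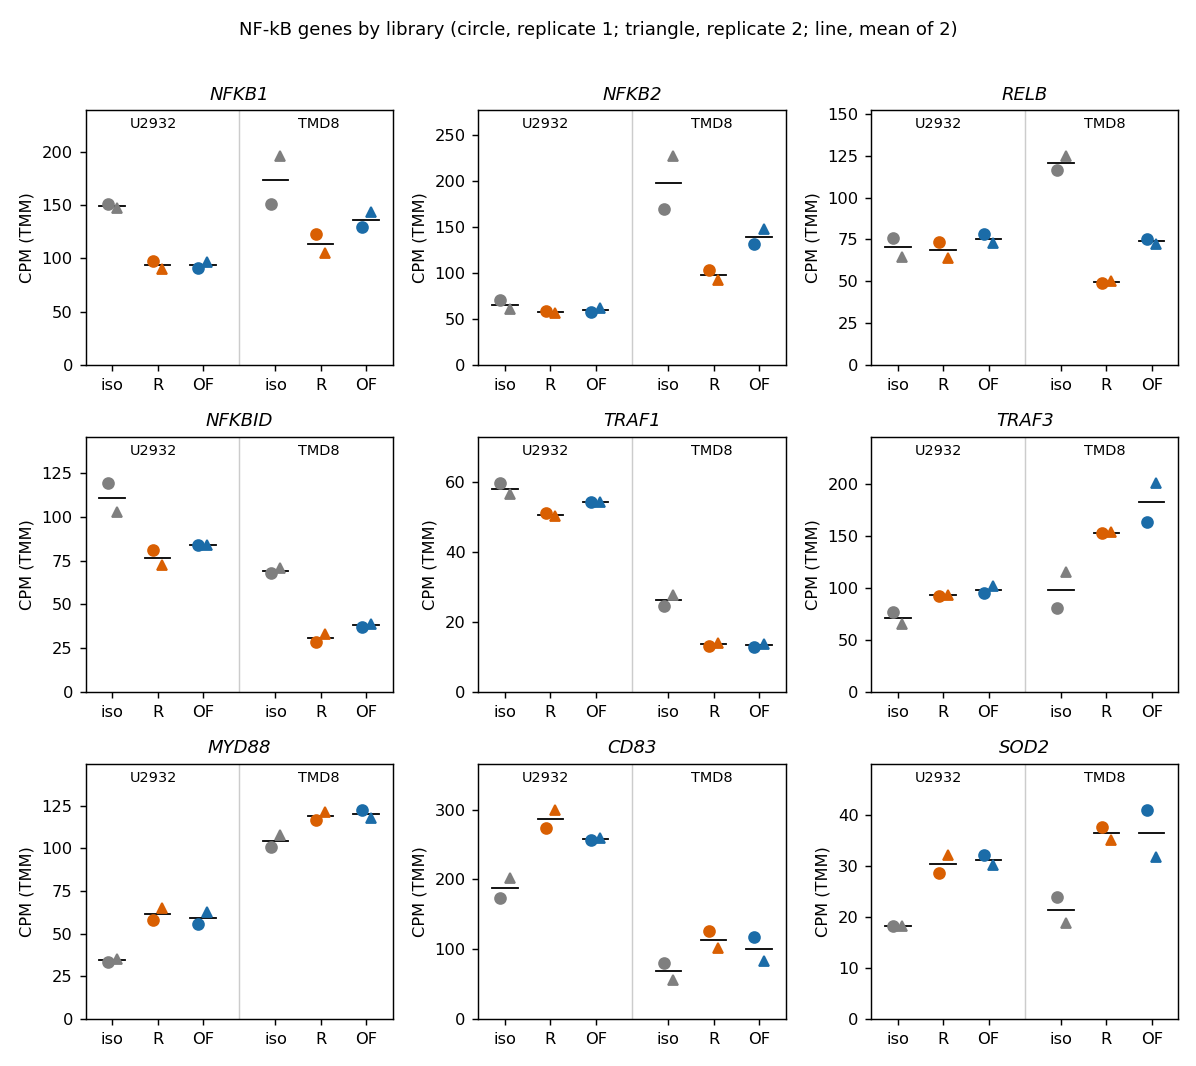
CPM after TMM normalization (y axes, from 0) of 9 NF-kB genes in each of the 12 libraries, by line and antibody (iso, isotype). Circles are replicate 1, triangles replicate 2 and lines the mean of 2 libraries. RELB in TMD8 steps down from 116 and 125 with isotype to 75.5 and 72.2 with OF and 48.9 and 50.2 with R, and it shows no such step in U2932.

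NFKBID, which encodes the nuclear IkB family member IkBNS, was the gene called lower in each of the 4 comparisons with isotype. In U2932 it was at 119 and 103 CPM with isotype, 81.3 and 72.3 with R, and 84.1 and 83.7 with OF. In TMD8 it was at 68.0 and 70.8, 28.7 and 32.8, and 37.3 and 38.7 CPM. In neither line did an anti-CD20 library reach the isotype range. It fell by 0.55 ± 0.10 with R at an adjusted p of 0.000139, and the change with OF was -0.42 ± 0.10 at an adjusted p of 0.00194 in U2932. In TMD8 it fell by 1.19 ± 0.15 with R at an adjusted p of 0.0717, and the change with OF was -0.88 ± 0.15 at an adjusted p of 0.0966. The 2 calls in U2932 held without each library in turn. In TMD8 the call with R was lost without either R library, and the call with OF was lost without each of the R and OF libraries or replicate 1 of isotype. In those fits calls fell away over all genes. Over all alternatives the change in TMD8 stayed between -1.325 and -0.9879 with R and between -1.034 and -0.8517 with OF.

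NFKBIA, the gene of IkBα, rose in U2932. It was at 23.3 and 24.4 CPM with isotype in U2932, 30.0 and 30.5 with R, and 30.0 and 27.2 with OF. It rose by 0.33 ± 0.11 with R at an adjusted p of 0.0243, and the change with OF was 0.24 ± 0.11 at an adjusted p of 0.0922. The rise with OF did not hold with DESeq2 (adjusted p = 0.161) or a GC content correction (adjusted p = 0.15). In TMD8 NFKBIA gave -0.09 and -0.12 and was not called. NFKBIE (-0.57), BCL3 (-0.50) and NFKBIB (-0.42) passed with R in TMD8 with the block and not without it (adjusted p = 0.0273, 0.0775 and 0.0988), and BCL3 and NFKBIB no longer did when the GC content correction was added. NFKBIZ was not called in the 4 comparisons in the main test or with the block alone, and with the GC content correction it passed with OF in U2932 (0.18, adjusted p = 0.0873) and, with the block added, with R in TMD8 (-0.40, adjusted p = 0.0846).

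Of the feedback regulators, TRAF1 was the one called in TMD8. There it was at 24.7 and 27.7 CPM with isotype, 13.3 and 14.0 with R, and 12.9 and 13.8 with OF. The anti-CD20 libraries did not overlap with those of isotype. TRAF1 fell by 0.96 ± 0.16 with R at an adjusted p of 0.0993, and the change with OF was -0.98 ± 0.16 at an adjusted p of 0.0950. The call with R was lost with upper quartile scaling or library size alone (adjusted p = 0.101 and 0.117), and without either R library, either OF library or replicate 2 of isotype. Over all alternatives the change with R stayed between -1.098 and -0.8701. The call with OF was lost with library size alone, and without either R library, either OF library or replicate 1 of isotype. The losses for OF without a library, and those for R without an R library, came in fits where calls fell away over all genes. In U2932 it was at 59.7 and 56.6 CPM with isotype, 51.2 and 50.4 with R, and 54.3 and 54.4 with OF, and it was not called (-0.22 and -0.12).

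TNFAIP3, whose product A20 shuts off IKK signalling, gave -0.53 with R and -0.49 with OF in TMD8, which passed with the block and not without it (adjusted p = 0.0417 and 0.0591), and by -0.14 and -0.12 in U2932. CYLD was at 117 and 137 CPM with isotype in U2932, 109 and 112 with R, and 106 and 112 with OF. Its calls there (-0.21 and -0.24, adjusted p = 0.0906 and 0.0585) did not hold with a GC content correction. CFLAR was at 190 and 208 CPM with isotype, 180 and 168 with R, and 192 and 179 with OF in U2932, and it fell with R by 0.21 ± 0.09 (adjusted p = 0.0788). The CFLAR call was lost with the size factors of DESeq2 in place of TMM, with DESeq2 and the block, and with only the 4 libraries compared. TNIP1 was at 211 and 183 CPM with isotype and 237 and 242 with OF in U2932, and it rose with OF by 0.26 ± 0.09 (adjusted p = 0.0270), which did not hold with the GC content correction (adjusted p = 0.165). TNIP2 and BIRC3 were not called against isotype in the main test or with the block alone, and BIRC3 passed with R in U2932 when the block was combined with the GC content correction (0.15, adjusted p = 0.0757).

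MYD88 gave the largest change of all members in U2932. It was at 33.4 and 35.0 CPM with isotype, 57.7 and 65.3 with R, and 55.9 and 62.9 with OF. All 4 anti-CD20 libraries lay above both isotype libraries. MYD88 rose by 0.83 ± 0.10 with R at an adjusted p of 1.16e-06, and the change with OF was 0.78 ± 0.10 at an adjusted p of 3.29e-06. In TMD8, where its level with isotype was higher, it was at 101 and 108 CPM with isotype, 117 and 121 with R, and 122 and 118 with OF. The changes there, 0.17 and 0.19, were not called.

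Of the genes for proteins that hold NIK low, TRAF3 rose and TRAF2 and BIRC2 fell in U2932, and BIRC3 was not called. TRAF3 was at 77.2 and 65.0 CPM with isotype in U2932, 92.0 and 93.3 with R, and 94.7 and 102 with OF, and it rose by 0.36 ± 0.10 (adjusted p = 0.00654) and 0.45 ± 0.10 (adjusted p = 0.00107). In TMD8 it was at 80.9 and 116 CPM with isotype, 152 and 153 with R, and 163 and 200 with OF. Its changes of 0.62 and 0.88 there did not pass, and they did with the block (adjusted p = 0.0332 and 0.0134) or the GC content correction (adjusted p = 0.0969 and 0.0807). TRAF2 moved the other way, from 79.2 and 63.6 CPM to 58.6 and 53.5 with R and 61.6 and 57.9 with OF in U2932. It fell by 0.37 ± 0.11 (adjusted p = 0.0109) and 0.28 ± 0.11 (adjusted p = 0.0523), and in TMD8 the change with R, -0.76, did not pass, and it did with the block (adjusted p = 0.0125) and with DESeq2 (adjusted p = 0.0339).

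BIRC2 (cIAP1) also fell in U2932, from 90.8 and 97.9 CPM with isotype to 73.9 and 77.0 with R (-0.34 ± 0.09, adjusted p = 0.00641) and 72.1 and 70.4 with OF (-0.42 ± 0.09, adjusted p = 0.00104). In TMD8 it was at 54.5 and 38.2 CPM with isotype, 38.5 and 32.5 with R, and 30.5 and 21.4 with OF, and the change with OF, -0.85, passed with the block and not without it (adjusted p = 0.0116). TRAF6, the ligase downstream of MYD88, was at 30.7 and 35.2 CPM with isotype in U2932, 28.2 and 27.9 with R, and 23.8 and 23.2 with OF. It fell by 0.25 ± 0.11 with R (adjusted p = 0.0852, not held with DESeq2 at 0.171) and by 0.51 ± 0.11 with OF (adjusted p = 0.000971). TRAF5 and TIFA were not called in the 4 comparisons in the main test or with the block alone. With library size alone, TRAF5 passed with R (-0.35, adjusted p = 0.0662) and TIFA with OF (-0.22, adjusted p = 0.0633) in U2932.

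Of the 10 kinases tested, 3 were called for each antibody in U2932 (30%, against 34.2% and 36.4% of all genes) and 0 in TMD8 by edgeR without the block. IKBKE was at 65.5 and 60.5 CPM with isotype in U2932, 83.8 and 76.8 with R, and 78.4 and 79.7 with OF. It rose by 0.33 ± 0.10 (adjusted p = 0.0101) and 0.31 ± 0.10 (adjusted p = 0.0154), and both groups lay above isotype. RIPK2 was at 63.8 and 67.7 CPM with isotype, 48.8 and 54.2 with R, and 55.7 and 55.8 with OF, and it fell by 0.37 ± 0.10 (adjusted p = 0.00528) and 0.26 ± 0.10 (adjusted p = 0.0463). IKBKB rose with R in U2932, from 45.9 and 49.7 to 60.7 and 55.2 CPM (0.26 ± 0.10, adjusted p = 0.0532), and CHUK fell with OF, from 34.9 and 38.7 to 32.0 and 29.9 CPM (-0.27 ± 0.11, adjusted p = 0.0566). The IKBKB call did not hold with library size alone (adjusted p = 0.230) and the CHUK call did not hold with the GC content correction (adjusted p = 0.241). In TMD8, IKBKB gave 0.39 and 0.45, which passed with the block and not without it (adjusted p = 0.0932 and 0.0706). IRAK4, TBK1 and RIPK1 were not called against isotype in the main test or with the block alone. TBK1 passed in U2932 with the GC content correction, at 0.24 for R and 0.22 for OF (adjusted p = 0.0113 and 0.0225).

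Of the 4 other targets, SOD2, CD83 and ICAM1 rose in U2932 with each antibody, where 16.8% and 18.7% of all genes were called higher. SOD2 was at 18.3 and 18.3 CPM with isotype, 28.6 and 32.2 with R, and 32.1 and 30.1 with OF, and it rose by 0.72 ± 0.11 (adjusted p = 2.47e-05) and 0.75 ± 0.11 (adjusted p = 1.42e-05). In TMD8 it was at 23.9 and 18.7 CPM with isotype, 37.7 and 35.2 with R, and 41.0 and 31.8 with OF, which is 0.76 with each antibody and passed with the block (adjusted p = 0.0141 and 0.0172). CD83 was at 173 and 201 CPM with isotype in U2932, 273 and 299 with R, and 257 and 259 with OF, and it rose by 0.59 ± 0.09 (adjusted p = 1.63e-05) and 0.45 ± 0.09 (adjusted p = 0.000484). In TMD8 it was at 80.7 and 55.7 CPM with isotype, 126 and 101 with R, and 117 and 82.3 with OF, which is 0.72 and 0.54 and passed with the block (adjusted p = 0.0125 and 0.0379). ICAM1 was at 54.7 and 55.2 CPM with isotype, 69.8 and 66.3 with R, and 71.1 and 77.1 with OF in U2932, a rise of 0.29 ± 0.10 (adjusted p = 0.0238) and 0.41 ± 0.10 (adjusted p = 0.00173). EBI3 was not called for either antibody in either line in the main test or with the block. Exons of SOD2 and ICAM1 overlap other genes on the opposite strand.

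The study asked whether transcriptional changes could help explain why R and OF interacted differently with chemotherapy, depending on the cell line. The 2 antibodies bind different epitopes of CD20. No member was called between them in either line with edgeR or DESeq2 (background 0.00683% in U2932 and 0% in TMD8), and none with the block in edgeR (background 0.0273% in U2932, or 0.0205% at 1.5-fold, and 0% in TMD8). At an unadjusted p-value under 0.05 there were 3 members in each line, and in U2932 747 of all 14635 genes. The TMD8 count was not set against all genes, and neither count is a test of an excess. In U2932 the members were MAP3K14 (-0.33, 95% interval -0.60 to -0.06), BCL3 (-0.29) and TRAF6 (0.26). In TMD8 they were RELB (-0.58, 95% interval -0.92 to -0.25), NFKB2 (-0.52) and BCL3 (-0.67, 95% interval -1.17 to -0.17). In U2932 the intervals of all 39 members lay between -0.60 and 0.49. In TMD8 the widest intervals reached from -1.27 to 1.06, with a median half-width of 0.44. With DESeq2 and the block, BCL3 passed in TMD8 (-0.66, adjusted p = 0.0799), as 1 of 52 genes called of 14227, and BCL3 was at 96.7 and 96.7 CPM with R against 134 and 173 with OF.

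**Figure D4:**
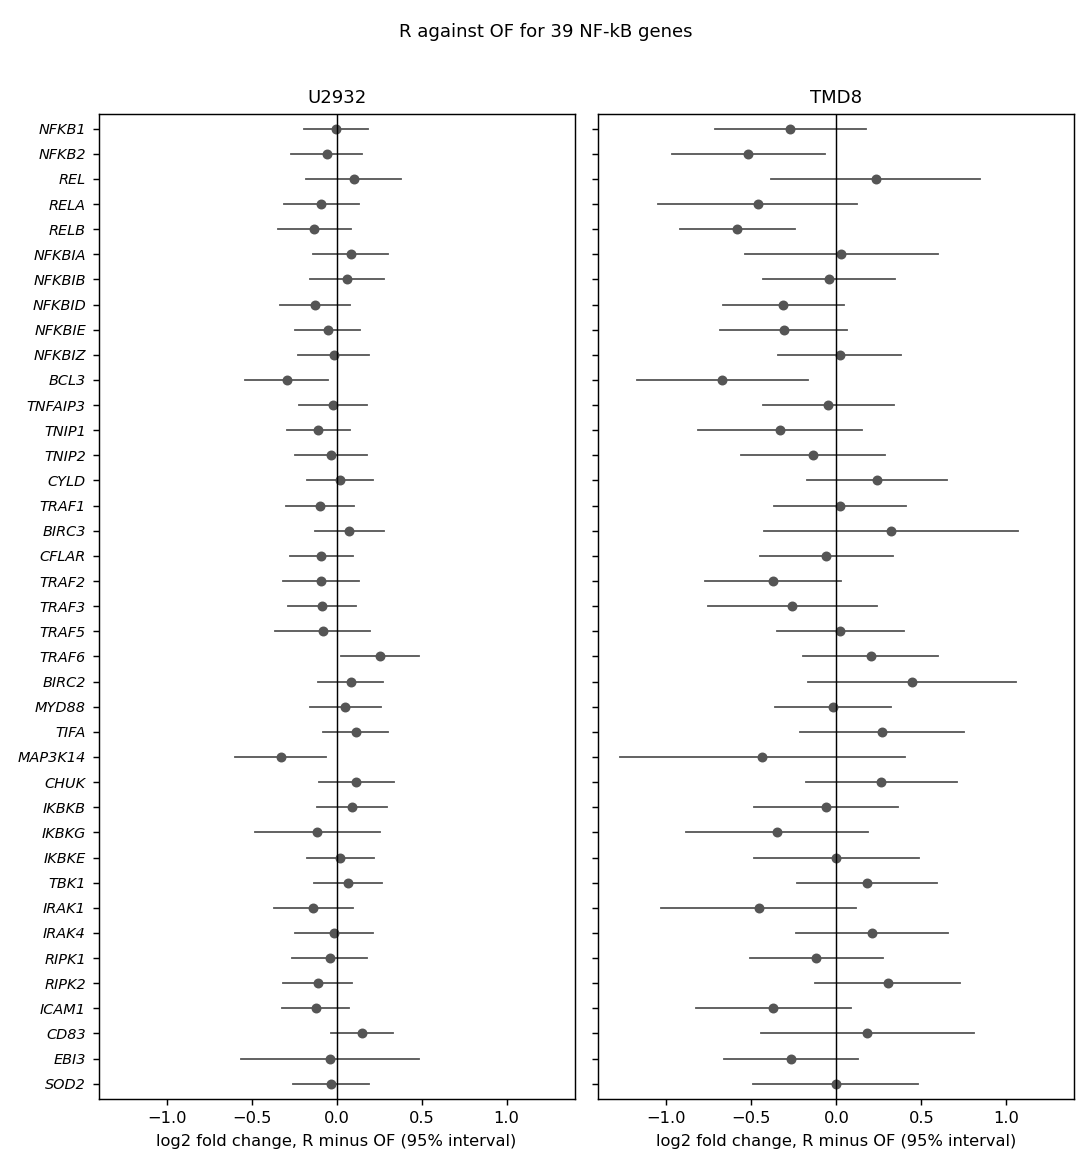
Log2 fold change between R and OF (R minus OF) for 39 NF-kB genes in U2932 (left) and TMD8 (right), as points with 95% intervals from edgeR with 2 libraries per group. The largest difference is 0.33 in U2932 (MAP3K14) and 0.67 in TMD8 (BCL3), both lower with R, and the intervals are wider in TMD8, with a median half-width of 0.44 against 0.21.

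Whether the response differed between the lines was tested as an interaction in a fit of all 12 libraries, U2932 effect minus TMD8 effect. RELB was the 1 member called for R (background 0.321%), with an interaction of 1.26 ± 0.18 (adjusted p = 0.0399), from -0.05 in U2932 and -1.30 in TMD8 in the fits of each line. For OF no member was called (background 0.105%), and DESeq2 called 3, among 256 of 16187 genes. With the block, 6 members were called for R (background 6.04%), namely NFKB2 (0.83), RELB, NFKBID (0.65), NFKBIE (0.69), TRAF1 (0.75) and MYD88 (0.66), each more positive in U2932. For OF the block called RELB (0.80), TRAF1 (0.87) and MYD88 (0.58) (background 2.23%). The RELB call for R did not hold with a GC content correction alone (0.95, adjusted p = 0.12) and held with the block and the correction (0.94, adjusted p = 0.0122). NFKB1, which fell in U2932, gave an interaction of -0.05 with R (95% interval -0.50 to 0.40), and differences within that range are compatible with the data.

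Of 22 genes upstream of the pathway, 20 were tested in U2932 and 19 in TMD8. The list was drawn up with earlier results of these data known, so its shares are no test of an excess. In U2932, 5 rose and 4 fell with R (45%, against the background of 34.2%), and 7 rose and 5 fell with OF (60% against 36.4%). The receptors TNFRSF1A (0.72 and 0.99) and CD40 (0.43 and 0.34) rose, and the ligase PELI1 (-0.35 and -0.41) and the TAK1 partner TAB2 (-0.49 and -0.48) fell. In TMD8 none was called without the block, and 5 and 4 were called with it for R and OF (26.3% and 21.1%, against 17.7% and 14.3% of all genes). Between the lines, 13 of 20 differed (65%, against 66.8% of all genes).

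Of 26 further NF-kB targets, 22 were tested in U2932 and 24 in TMD8. This list too was drawn up with earlier results of these data known, so its shares are no test of an excess. In U2932, 10 rose and 3 fell with R (59.1%, against 34.2% of all genes), and 10 rose and 1 fell with OF (50%, against 36.4%). RGS1, a regulator of G-protein signalling in B cells, rose by 1.36 ± 0.11 and 1.42 ± 0.11, the chemokine CCL4 by 0.98 ± 0.13 and 0.64 ± 0.14, the adhesion receptor CD44 by 0.41 and 0.54, and PLEK by 0.50 and 0.42. In TMD8, RGS1 gave 1.27 and 1.11, which passed with the block (adjusted p = 0.00705 and 0.0138), and CCL4 gave -0.82 and -0.88 and did not pass. The median log2 fold change of the 22 targets was 0.27 with R and 0.16 with OF, against -0.02 and 0.01 over all genes. In TMD8 the 1 gene called was BCL2L1, which encodes the survival protein BCL-XL. It fell by 1.04 ± 0.14 with R at an adjusted p of 0.0717, and the change with OF was -0.85 ± 0.14 at an adjusted p of 0.0950. In U2932 BCL2L1 was also called lower with R (-0.29 ± 0.09, adjusted p = 0.0154), and its change with OF, -0.14, was not called. With the block, 13 targets were called in TMD8 with R, 5 higher and 8 lower (54.2%, against 17.7% of all genes), and 11 with OF, 6 higher and 5 lower (45.8% against 14.3%). Between the lines with isotype, 23 of 24 differed, 9 higher and 14 lower in U2932 (95.8%, against 66.8% of all genes).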

How the data were processed

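The authors aligned trimmed reads to the human genome (GRCh38) with STAR 2.7.0e after Trim Galore 0.6.0 and deposited raw counts per gene; DESeq2 1.26.0 is also in the submitters' processing notes. The strand setting and annotation release are not given in the sources used here. Genes were fitted by edgeR 4.0.16 (R 4.3.3, quasi-likelihood test, legacy option, TMM normalization, filterByExpr with a minimum count of 10), per line with 6 libraries, or with all 12 for the lines and interactions. Benjamini-Hochberg adjustment ran over all genes tested, with calls at an adjusted p-value under 0.10. DESeq2 1.42.0, a GC content correction, other scalings, filters, and the loss of each library were alternatives. The replicate number was taken to name a separately kept culture of a line, which the sample titles do not state, and was also used as a block. Deviations of libraries with the same number correlated at 0.227, 0.687 and 0.222 in TMD8 and at 0.104, -0.00070 and -0.048 in U2932. The fits were tested on simulated data. Library totals were 15440226 to 27110612 counts. The 2 replicates of a group differed by more than counting error, with a chi-square per degree of freedom of 2.42 to 10.8 in U2932 and 5.92 to 106 in TMD8. The members and lists were chosen with earlier results of these data known. Named further genes were taken by how many comparisons called them, and 1 of them is not reported here. Gene positions are from GENCODE.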

Additional observations from a re-analysis of the deposited data

Results flagged for a closer look

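RELB was the member whose response to R differed between the lines by the test of the difference itself, with an interaction of 1.26 ± 0.18 on the log2 scale (U2932 minus TMD8, edgeR adjusted p = 0.0399). The call was lost without any 1 of the 6 U2932 libraries or either TMD8 R library, with values of 1.14 to 1.38. In those fits calls over all genes fell away as well.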

How the results depend on the processing

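The replicate block, other tools and the choice of libraries changed the number of members called, most of all in TMD8, and the cause was not tested. For R in U2932 (18 called), 4 were called at 1.5-fold, 4 with the block at 1.5-fold and 4 in a fit of all 12 libraries. For OF in U2932 (17 called) these were 3, 3 and 5. Over all genes the calls for R went from 5005 of 14635 to 1494, 1528 and, of 16187 with all 12 libraries, 1207. For OF they went from 5334 to 1625, 1675 and 1407. For R in TMD8 (3 called) the count was 8 with no filter, 17 with the replicate block, 5 with the GC content correction, 18 with both, 0 at an adjusted p-value under 0.05, 16 with the block without the legacy option, 10 with the block at 1.5-fold, 21 with the block and library size only, 6 with DESeq2, 15 with DESeq2 and the block, 1 with the 4 libraries compared and 15 with all 12 libraries. For OF in TMD8 (2 called) the same settings gave 7, 14, 4, 15, 0, 13, 7, 15, 5, 12, 0 and 11, and library size only gave 0. The calls over all genes moved as well: from 92 of 14227 for R and 116 for OF they went to 1093 and 908 of 26975 with no filter, and of 14227 to 2521 and 2037 with the block, 471 and 444 with the GC content correction, 2343 and 2235 with both, 0 and 0 at an adjusted p-value under 0.05, 2629 and 1928 with the block and library size only, 721 and 594 with DESeq2, and 1822 and 1456 with DESeq2 and the block. In a fit of all 12 libraries they were 1999 and 1607 of 16187. Between R and OF in TMD8, DESeq2 with the block called 1 member among 52 genes. For the interaction with R (1 called), the GC content correction gave 0, the block 6, both 4 and DESeq2 7, and for OF (0 called) these gave 1, 3, 3 and 3. Over all 16187 genes the calls went from 52 to 71, 978, 504 and 546 for R. For OF they went from 17 to 77, 361, 486 and 256. TRAF5 between the lines turned from 0.32 to -0.0424 (adjusted p = 0.666) when averaged over the 3 antibodies. Leaving out each library gave 12 to 19 and 10 to 21 members for R and OF in U2932 (10 without either OF library), 0 to 7 and 0 to 4 in TMD8 (7 without replicate 1 and 4 without replicate 2 of isotype), 0 to 0 between R and OF in each line, 24 to 29 between the lines, and 0 to 5 and 0 to 1 for the interactions (5 without replicate 1 of TMD8 isotype). In the fits without 1 library the calls over all genes moved as well. No paired analysis was possible between the lines because their replicate numbers name different cells.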
